A study of Mus musculus with 51 samples.

Results

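The Nodal pathway genes described here are 9 of the 24538 genes in the deposited RNA-seq tables. They were listed by symbol, with earlier results of these data known. They are the ligands *Nodal*, *Gdf1* and *Gdf3*, the co-receptors *Tdgf1* and *Cfc1*, the secreted antagonists *Lefty1* and *Lefty2*, the type II receptor gene *Acvr2b* and the transcription factor gene *Foxh1*. Each of them was found in all 9 tables.

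The 18 RNA samples come from mouse ES cells and from the mesodermal (ME) cells into which they were differentiated with Bmp4 (20 ng/ml). The F1G4 WT line was sampled before differentiation (ES) and on each of days 1, 2 and 3, where the labels list 2 samples at every stage. Its KO derivatives (*Eomes* KO, *T* KO, and the dKO of both genes) were sampled on days 2 and 3, whereas a separate *Smad4* line was sampled on days 1 and 2 as WT and as KO, and for each of these the labels list 1 sample. Single KOs of *Eomes* and *T* had lost the promoter and the first exon to paired Cas9 nicks, and the dKO was obtained by repeating this for *T* in *Eomes* KO cells. The *Smad4* KO had its loxP-flanked first exon cut out by transient Cre, its WT counterpart keeps the conditional alleles, and this line has a 129S/SvEv and C57BL/6 background. Every KO line was grown from single clones, so that the deletion and the clone cannot be told apart. All conditions other than ES received Bmp4. In the paper ES stands for the stage of cell aggregates, which were then moved to differentiation medium with Bmp4 and plated on fibronectin. Between ES and later days the effect of Bmp4 therefore cannot be told apart from that of medium and plating.

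Nodal is a secreted protein of the TGFβ superfamily. It is received by a complex of type I and type II activin receptors only where an EGF-CFC co-receptor, Tdgf1 (Cripto) or Cfc1 (Cryptic), is present. The receptors phosphorylate Smad2 and Smad3, which enter the nucleus with Smad4 and bind DNA together with partners such as Foxh1. *Nodal* itself and the genes of its diffusible inhibitors, *Lefty1* and *Lefty2*, are targets of this signal, so that the pathway both amplifies and limits itself, and in the embryo graded Nodal activity patterns the primitive streak.

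The files hold 1 FPKM value (fragments scaled to transcript length and to sequencing depth) per gene and condition, so no spread between samples, depth or test could be derived, and none of the differences below has a replicate check. A gene was examined in a comparison when its FPKM was above 1 in either condition, and it was called lower or higher when the log2 ratio was below −1 or above 1, that is, past a 2-fold difference. Beside each count of members called, the share of all examined genes called in that direction is given. As a yardstick, the WT cells of both lines, which no deletion separates, were compared after scaling to a median ratio of 1. On day 1, 3.84% of all examined genes were called lower and 7.26% higher in the *Smad4* line, and on day 2, 3.51% lower and 1.57% higher. Among the members, *Nodal* and *Lefty1* were called higher on day 1 (log2 ratios 1.42 and 1.51) and *Tdgf1* lower on day 2 (−1.59). Calls of members thus occurred between cells of different lines that both carry a working *Smad4*, *Eomes* and *T*. The median log2 ratio over genes above FPKM 1 in both conditions lay between −0.08 and 0.01 in the 13 comparisons. The column of *Eomes* KO cells on day 3 stood apart in 2 respects. Its FPKM sum, 401510, was the lowest of a range that reached 608585, and its ratio to WT ran with transcript length, with a median log2 ratio of −0.27 in the shortest and 0.16 in the longest of 4 equal groups of genes. The column of dKO cells on day 2 had the opposite trend, from 0.29 to −0.26.

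To show where the measured genes lie, the letters upstream of *Nodal* and *Tdgf1* are printed, along with the stretches of *Nodal* that hold the core letters read by Foxh1. This pair was chosen because its levels ran together over the 14 conditions (Pearson's r 0.85 on a log scale). Over the 12 conditions without the *Smad4* KO the r was only 0.47. Over all 14, *Tdgf1* ran closer to *Lefty2* (0.91) and *Lefty1* (0.89) than to *Nodal*. *Nodal* lies on chromosome 10 (61417972-61425338, plus strand, GRCm38) and *Tdgf1* on chromosome 9 (110939608-110946158, minus strand). The first 2 lines are the 250 bases that end just before the annotated start of each gene, at chr10:61417722-61417971 and chr9:110946159-110946408, 5′ to 3′ on the strand of the gene, as given by RefSeq for GRCm38.p6. They are in lower case throughout because none of the motifs searched was found in them. The last 2 lines are 60 bases each of the first intron of *Nodal* (chr10:61418496-61422981), at chr10:61419273-61419332 and chr10:61420067-61420126 on the plus strand, with the match to AATNCACA in capitals.
Nodal upstream: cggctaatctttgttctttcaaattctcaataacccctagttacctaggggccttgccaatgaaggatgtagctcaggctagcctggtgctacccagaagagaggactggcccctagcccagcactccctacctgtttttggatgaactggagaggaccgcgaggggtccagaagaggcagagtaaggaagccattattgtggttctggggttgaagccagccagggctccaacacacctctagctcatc
Tdgf1 upstream: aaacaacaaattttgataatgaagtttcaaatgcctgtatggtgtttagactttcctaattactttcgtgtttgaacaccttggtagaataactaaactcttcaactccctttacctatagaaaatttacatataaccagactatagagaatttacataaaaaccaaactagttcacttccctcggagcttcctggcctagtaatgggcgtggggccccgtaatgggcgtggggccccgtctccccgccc
Nodal intron, first match: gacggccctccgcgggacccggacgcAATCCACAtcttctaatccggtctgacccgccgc
Nodal intron, second match: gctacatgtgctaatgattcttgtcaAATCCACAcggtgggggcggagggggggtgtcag

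Promoter windows of 300 bases (250 before the start and 50 after it) were found for 5 of the 9 members, *Nodal*, *Tdgf1*, *Cfc1*, *Acvr2b* and *Gdf1*. They were searched on both strands for AATNCACA (Foxh1), CAGACA and GTCTAGAC (Smad), GGCGCC (GC-rich Smad), ATCAAAG (Tcf/Lef) and TCACACCT (T-box). Of 32851 promoter windows, 3.60% held AATNCACA, 21.0% CAGACA, 0.213% GTCTAGAC, 11.9% GGCGCC, 3.73% ATCAAAG and 1.28% TCACACCT. Among the members the only match was a GGCGCC in the first of 2 windows of *Gdf1*. The first intron of *Nodal*, which is known as the seat of an enhancer that answers to the pathway itself, was looked at after the promoters had been searched. Its 4486 bases hold AATNCACA 2 times, 1327 and 2121 bases from the start of the gene and both times as AATCCACA. Of 28302 windows of this length on chromosome 10, 30.9% held at least 2 matches.

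*Nodal*, the ligand that gives the pathway its name, was present in all 14 conditions. In F1G4 WT cells its FPKM was 14.1 in the ES state, 9.91 on day 1, 32.1 on day 2 and 30.8 on day 3. The step from day 1 to day 2 was 3.24-fold (log2 ratio 1.70), whereas the change from day 2 to day 3 was −0.06, and day 1 was the lowest stage. In the *Smad4* line, WT cells had 25.6 on day 1 and 32.4 on day 2, so they held on day 1 a level that F1G4 cells showed on day 2. *Smad4* KO cells had 5.96 and 2.53 on the same days, the lowest of the 14 conditions. *Eomes* KO cells had 26.3 on day 2 and 8.31 on day 3, *T* KO cells 37.4 and 37.1, and dKO cells 24.8 and 17.8. In order of level, *T* KO cells on both days came first and *Smad4* KO cells on day 2 last, and the gap to *Smad4* KO cells on day 1 above them (log2 1.24) was the only one between neighbours beyond 2-fold. In bulk samples a smaller share of *Nodal*-expressing cells and less *Nodal* RNA per cell cannot be told apart.

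*Gdf3*, a ligand of the same receptors that is typical of pluripotent cells, took another course. Its FPKM in F1G4 WT cells was 23.2 in the ES state, 15.8 on day 1, 10.9 on day 2 and 2.23 on day 3. The level on day 3 was 10.4-fold below that of ES cells (log2 ratio −3.37), and the step from day 2 to day 3 alone was 4.87-fold. WT and KO cells of the *Smad4* line hardly differed, with 15.6 and 14.8 on day 1 and 8.24 and 9.32 on day 2. In *Eomes* KO cells it stood at 20.0 on day 2 and 2.04 on day 3, in *T* KO cells at 9.23 and 3.97, and in dKO cells at 18.9 and 9.49. On day 3 only the dKO among the KO lines was past the limit against WT (log2 ratio 2.03), with *T* KO at 0.82 and *Eomes* KO at −0.19.

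*Gdf1*, which codes for a partner that dimerizes with Nodal, stayed between 0.0569 and 2.00 FPKM. In F1G4 WT cells it stood at 0.273 in the ES state, 2.00 on day 1, 1.17 on day 2 and 0.164 on day 3, so that its highest value fell on the day on which *Nodal* was lowest. It was above 1 in 5 of the 14 conditions, all of them on day 1 or 2. Its value is uncertain, since *Gdf1* shares its transcript with *Cers1*: all 1300 stretches of 50 bases in the *Gdf1* transcript also occur in *Cers1*, which was itself between 0.0179 and 0.870 FPKM. How the counting divided such reads is not given in the sources used here.

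*Tdgf1*, the co-receptor without which Nodal is not received by most cells, had the highest FPKM of all members in 12 of the 14 conditions (*Foxh1* in the *Smad4* KO on both days) and the widest range. In F1G4 WT cells its FPKM was 625 in the ES state, 163 on day 1, 569 on day 2 and 533 on day 3. It ranked 120 of 24534 genes in the ES state, 496 on day 1 and 123 on day 2, so that the level on day 1, 3.83-fold below that of ES cells and 3.49-fold below that of day 2, was a dip within a very high range. WT cells of the *Smad4* line had 126 on day 1 and 187 on day 2, and *Smad4* KO cells 17.5 and 3.30. *Eomes* KO cells had 1051 on day 2 and 97.8 on day 3, *T* KO cells 675 and 380, and dKO cells 1129 and 497. From dKO cells on day 2 to *Smad4* KO cells on day 2 its level spanned 342-fold. Both lines without *Eomes* stood at the top on day 2, *Smad4* KO cells stood at the bottom on either day, and *Eomes* KO cells on day 3 came next above them. Of the 50-base stretches in its transcript, 12.5% also occur in the processed copy *Tdgf1-ps1*.

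*Cfc1*, the other EGF-CFC gene, which acts in left-right patterning at later stages, was below FPKM 1 in all 14 conditions. It was listed at 0 in F1G4 WT cells on day 2 and in *Eomes* KO and dKO cells on day 3, and its highest values, 0.953 in *T* KO and 0.932 in F1G4 WT cells, were both those of day 3. It was not examined in any comparison, so counts of members called refer to at most 8 genes.

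*Lefty1* and *Lefty2* code for secreted inhibitors that bind Nodal and its co-receptor, and they lie in the same orientation on chromosome 1 (*Lefty2* at 180893108-180899107 and *Lefty1* at 180935022-180938401, GRCm38), 35914 bases apart. In F1G4 WT cells *Lefty1* stood at 17.7 in the ES state, 2.29 on day 1, 17.1 on day 2 and 14.3 on day 3, and *Lefty2* at 75.1, 14.1, 30.0 and 39.3. Both shared with *Tdgf1* the dip on day 1, which was 7.71-fold for *Lefty1* and 5.33-fold for *Lefty2*. *Lefty1* was back at its ES level on day 2 (log2 ratio to ES −0.05), whereas *Lefty2* was not (−1.32). In WT cells of the *Smad4* line *Lefty1* was 6.29 and 12.1 on days 1 and 2 and *Lefty2* 23.7 and 19.3, and in *Smad4* KO cells they were 1.76 and 1.20 and 3.50 and 1.24. On days 2 and 3 *Lefty1* was 43.4 and 4.55 in *Eomes* KO cells, 25.6 and 39.1 in *T* KO cells and 35.0 and 39.4 in dKO cells. *Lefty2* on these days was 32.6 and 6.07, 18.3 and 13.6, and 30.1 and 30.3.

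*Acvr2b*, a type II receptor gene, and *Foxh1*, whose product carries activated Smads to DNA, were the steadiest members. *Acvr2b* lay between 4.00 in dKO cells on day 2 and 10.2 in *Smad4* KO cells on day 2, with 7.37, 8.60, 6.85 and 8.84 in F1G4 WT cells from the ES state to day 3. *Foxh1* lay between 21.4 in *T* KO cells on day 3 and 59.1 in *T* KO cells on day 2. The other 12 values were between 23.7 and 38.8, so the value of *T* KO cells on day 2 stood alone at the top. The *Foxh1* gene ends within *Kifc2* on the opposite strand, which stayed at or below 1.05 FPKM in every condition. In neither gene did neighbours in the order of levels differ by 2-fold.

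**Figure D1:**
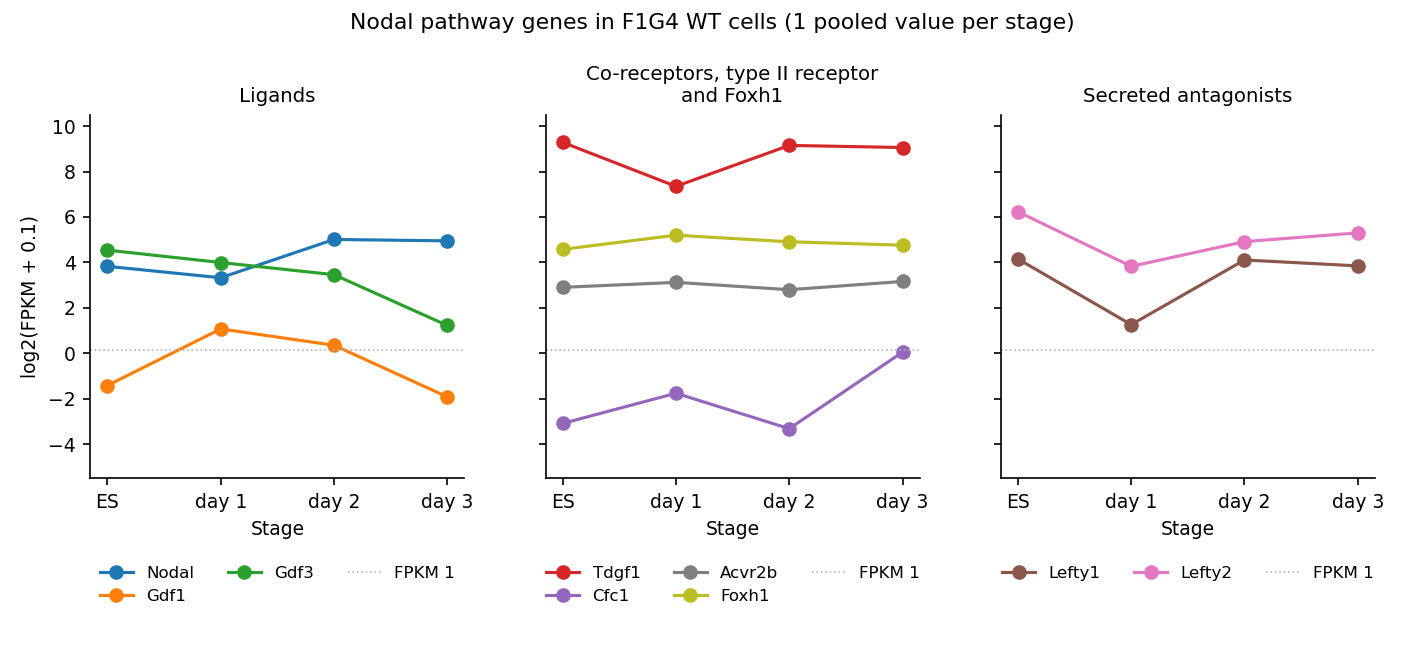
FPKM of the 9 Nodal pathway genes in F1G4 WT cells on the log2(FPKM + 0.1) scale by stage (ES state, days 1, 2 and 3). Each point is the single pooled value of a stage without an error, and the dotted line marks FPKM 1. *Tdgf1*, *Lefty1* and *Lefty2* are lowest on day 1, *Tdgf1* and *Lefty1* are near their ES level again on day 2 and *Lefty2* is not (30.0 against 75.1), *Gdf3* ends at 2.23 on day 3, and *Acvr2b* and *Foxh1* stay nearly level.

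Over the time course, then, the members did not move as a block. From the ES state to day 1, 3 of 8 examined members were called lower (*Tdgf1*, *Lefty1* and *Lefty2*, with log2 ratios of −1.94, −2.95 and −2.42) beside 5.84% of all examined genes, and *Gdf1* was called higher (2.87) beside 7.70%. From day 1 to day 2 no member was called lower and 4 were called higher, *Nodal* (1.70), *Tdgf1* (3.49-fold), *Lefty2* (1.09) and, by 7.46-fold, *Lefty1*, beside 4.13% of genes called lower and 7.18% called higher. From day 2 to day 3, *Gdf1* (−2.84) and *Gdf3* (−2.29) were called lower beside 4.06%, and none was called higher beside 6.14%. Against the ES state, *Nodal* was called higher on day 2 (1.19) and day 3 (1.13), and *Gdf3* lower on both days (−1.09 and −3.37), although on day 2 *Gdf3* was inside the limit with TPM and without the trends with GC content and length (−0.93). On day 2, 9.08% of all genes were called lower and 14.2% higher than in ES cells, and on day 3, 12.6% and 18.5%. On day 2 *Gdf1* (4.30-fold) was also called higher and *Lefty2* (−1.32) lower. The median log2 ratio of the examined members was −0.53 on day 1 relative to ES, 0.40 on day 2 relative to day 1 and −0.12 on day 3 relative to day 2, with medians of all examined genes between −0.06 and 0.01.

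In cells without *Smad4*, *Nodal*, *Tdgf1*, *Lefty1* and *Lefty2* were all far below WT on both days, and the other ligands, *Acvr2b* and *Foxh1* were not. According to the paper, BMP signals as well as Nodal signals are lost without *Smad4* in cells differentiated in vitro. Loss of the BMP signal and loss of the Nodal signal therefore cannot be told apart in this KO. On day 1 the ratios of KO to WT were 4.30-fold lower for *Nodal*, 7.24-fold for *Tdgf1*, 3.58-fold for *Lefty1* and 6.77-fold for *Lefty2*. On day 2 they were 12.8-fold, 56.6-fold, 10.1-fold and 15.5-fold lower. Each of these 4 genes was thus further below WT on day 2 than on day 1, a difference between days that was not tested. On day 1 these 4 of 8 examined members were called lower, beside 2.41% of 11232 genes, and none higher, beside 2.36%. On day 2 the 4 were called lower out of 7 examined members, beside 3.21% of 10999 genes, and none higher, beside 2.56%. Of 10990 genes with a ratio on day 2, 4 had a lower one than *Tdgf1*, 20 a lower one than *Lefty2*, 29 than *Nodal* and 39 than *Lefty1*. The median log2 ratio of the examined members was −3.34 on day 2, against −0.01 over all examined genes.

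The log2 ratios of *Gdf3* (−0.07 and 0.18 on days 1 and 2), *Acvr2b* (0.36 and 0.25) and *Foxh1* (−0.06 and 0.20) were well inside the limit, as was that of *Gdf1* on day 1 (0.05). In *Smad4* KO cells the FPKM of the co-receptor was 1.31 times that of *Nodal* on day 2, whereas it was 5.77 times in WT cells of the line and 17.7 times in F1G4 WT cells of that day. *Smad4* FPKM was 39.4 with the deletion and 33.8 without it on day 1, and 46.8 and 39.3 on day 2. As only the first exon is removed and FPKM sums over the transcript, this does not check the deletion.

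**Figure D2:**
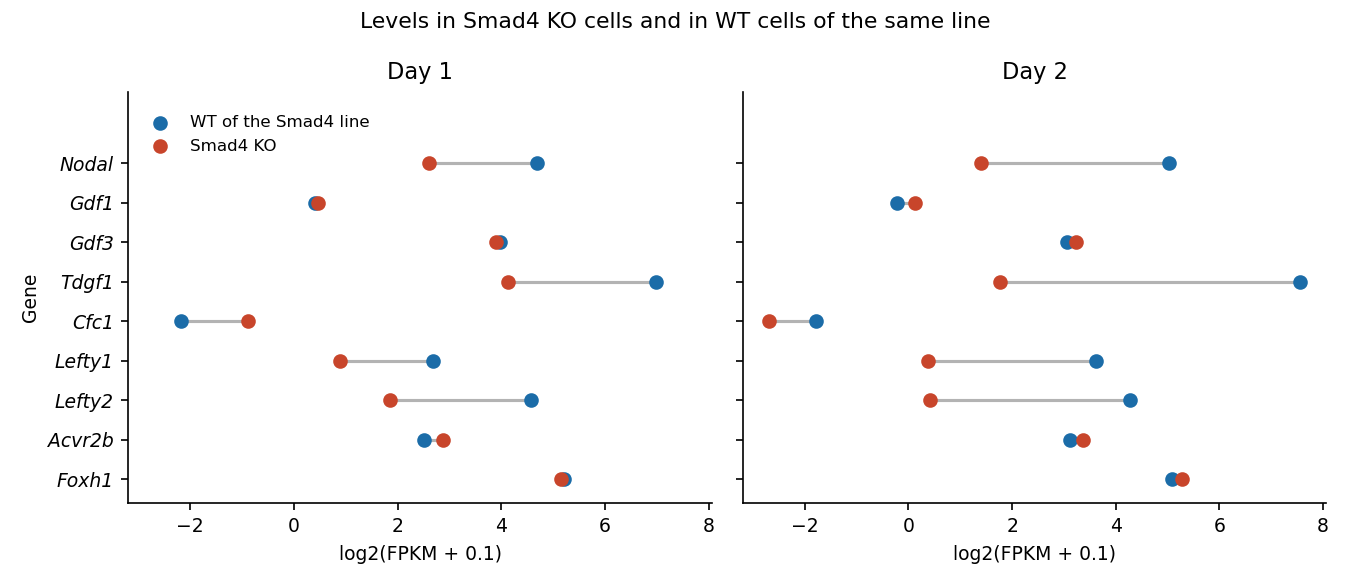
Levels of the 9 genes in *Smad4* KO cells and in WT cells of the same line on days 1 and 2, on the log2(FPKM + 0.1) scale, with 1 pooled value per point and a grey line joining KO and WT. *Nodal*, *Tdgf1*, *Lefty1* and *Lefty2* are far to the left in the KO on both days, and the widest gap is that of *Tdgf1* on day 2 (187 against 3.30 FPKM).

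Cell type markers also differed between *Smad4* KO and WT cells. On day 2, 4 of 4 examined nascent mesoderm genes (from *T*, *Eomes*, *Mixl1*, *Mesp1* and *Evx1*) were called lower, and their summed FPKM was 2.68 in KO and 56.8 in WT cells. Of the pluripotency genes 3 of 5 were called lower and 1 higher, with *Nanog* at 26.8 against 121 and *Sox2* at 120 against 35.2, while their sum was 794 against 864. Of the neuroectoderm genes 2 of 3 examined were called higher, *Pax6* (10.4 against 0.378) and *Sox1* (3.58 against 0.302). The sum of the list, 72.3 against 30.8, was mostly *Nes* (58.1 against 30.0), which was not called. Of all examined genes on that day, 3.21% were called lower and 2.56% higher. On day 1 the sums were 1.94 against 5.75 for nascent mesoderm, 856 against 1021 for pluripotency and 30.8 against 15.2 for neuroectoderm. The part of these shifts in the levels of the Nodal pathway genes was not tested.

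*Eomes* codes for a T-box factor of the early streak. In *Eomes* KO cells *Tdgf1* and *Lefty1* stood above WT on day 2, and *Nodal*, *Tdgf1*, *Lefty1* and *Lefty2* well below it on day 3, when *Gdf3* (log2 ratio −0.19), *Acvr2b* (−0.24) and *Foxh1* (−0.17) were near WT. On day 2 *Lefty1* was the only member called, at 43.4 against 17.0 in WT (2.55-fold higher), beside 3.35% of all examined genes called higher and 4.17% called lower. *Tdgf1* (1051 against 564) and *Gdf3* (20.0 against 10.8) were just below the limit, with log2 ratios of 0.90 and 0.89. On day 3, 4 of 7 examined members were called lower beside 9.01% of genes, and none higher beside 7.39%. *Nodal* was 8.31 against 32.1 in WT (3.87-fold lower), *Tdgf1* 97.8 against 558 (5.71-fold), *Lefty1* 4.55 against 14.9 (log2 ratio −1.71) and *Lefty2* 6.07 against 41.1 (6.77-fold). These 4 genes were also the ones called lower in *Smad4* KO cells, a comparison with WT cells of another line. After removal of the trends with GC content and length, their log2 ratios were −1.86, −2.28, −1.64 and −2.59.

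Within the *Eomes* KO line the gap lay between the days. *Tdgf1* was 10.9-fold and *Lefty1* 9.69-fold lower on day 3 than on day 2 of the same line, *Lefty2* 5.46-fold and *Nodal* 3.21-fold, after scaling of the columns to a median ratio of 1. The trends with GC content and length were not removed from these ratios, although the length trend against WT ran in opposite directions on these days. From the shortest to the longest genes the median log2 ratio to WT went from 0.10 to −0.08 on day 2. On day 3 it went from −0.27 to 0.16. In WT cells the log2 ratio between these days was −0.09 for *Tdgf1*, −0.26 for *Lefty1*, 0.39 for *Lefty2* and −0.06 for *Nodal*. *Gdf3* was lower on day 3 in *Eomes* KO cells (9.93-fold) as it was in WT cells (4.87-fold). In *Eomes* KO cells on day 3 the summed FPKM of pluripotency genes was 382, the lowest of all conditions, beside 617 in WT and 609 in dKO cells, none of the 5 being called against WT. The 4 nascent mesoderm genes other than the deleted *Eomes* were all called lower, with a sum of 4.57 beside 361 in WT. Of the neuroectoderm genes, 2 of 3 examined were called higher on day 2 (3.35% of all examined genes) and 1 of 2 on day 3 (7.39%). The part of these marker genes in the levels of the pathway genes was not tested.

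**Figure D3:**
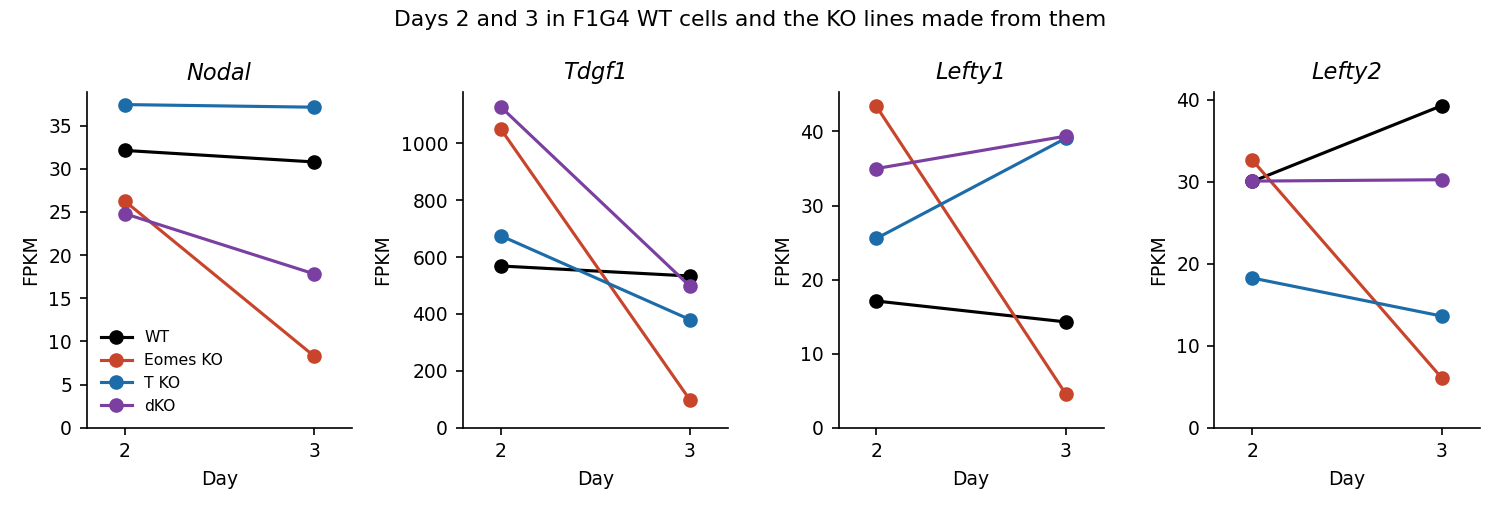
FPKM of *Nodal*, *Tdgf1*, *Lefty1* and *Lefty2* on days 2 and 3 in F1G4 WT cells and in the KO lines made from them (*Eomes*, *T*, dKO), with 1 pooled value per point and a linear axis from 0. In each panel the *Eomes* KO line ends lowest on day 3, although it is at or near the top on day 2 for *Tdgf1*, *Lefty1* and *Lefty2*.

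*T* codes for Brachyury, the T-box factor of the streak and nascent mesoderm, and in *T* KO cells the ligand and the co-receptor stood close to WT. *Nodal* was 37.4 on day 2 and 37.1 on day 3 (log2 ratios to WT 0.17 and 0.26) and *Tdgf1* 675 and 380 (0.20 and −0.50). On day 2 no member was called in either direction, although 9.93% of all examined genes were called lower and 5.70% higher. The member nearest to the limit was *Foxh1*, at 59.1 against 30.9 in WT (log2 ratio 0.94, and 0.91 without the trends with GC content and length), followed by *Lefty2* (−0.76). On day 3 the antagonists went opposite ways. *Lefty1* was called higher, at 39.1 against 14.4 (2.71-fold), beside 2.12% of genes, and *Lefty2* lower, at 13.6 against 39.7 (2.91-fold), beside 3.92%. Of the nascent mesoderm genes the 4 other than the deleted *T* were all called lower on day 3, with a sum of 5.30 beside 45.8 in WT cells. Day 2 was different: of 3 examined, 1 was called lower and 2 higher, among them *Eomes* (24.7 against 9.81). The sum of the 4 was then 32.7 beside 14.6 in WT cells. Of the pluripotency genes 2 of 5 were called higher on day 2 and none was called on day 3. Of the neuroectoderm genes 1 of 2 examined was called higher on day 2, and none was called on day 3. Whether these markers bear on the levels of the pathway genes was not tested.

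In dKO cells, which lack both factors, the pattern of *Eomes* KO cells on day 3 was not seen. On day 2 *Lefty1* (35.0 against 17.0, log2 ratio 1.04) and *Tdgf1* (1129 against 563, log2 ratio 1.00) were called higher beside 3.48% of genes, and none lower beside 4.50%. Both lay just past the limit, and the call of *Tdgf1* was lost when the columns were scaled to a median ratio of 1. Without the trends with GC content and length the log2 ratios were 0.82 for *Tdgf1* and 0.95 for *Lefty1*. When FPKM were rescaled to TPM, which alone moves all ratios of this comparison by −0.41, neither was called. On day 3 *Lefty1* (39.4 against 14.8, 2.66-fold) and *Gdf3* (9.49 against 2.32, 4.09-fold) were called higher beside 5.51%, and *Acvr2b* (4.44 against 9.20, 2.07-fold lower) was called lower beside 5.53%. *Nodal* was 17.8 against 32.0 (log2 ratio −0.84), *Tdgf1* 497 against 555 (−0.16) and *Lefty2* 30.3 against 40.9 (−0.43). Among markers, the 3 nascent mesoderm genes other than *Eomes* and *T* were called lower on day 3 (sum 0.499 against 27.0), and none of the 5 pluripotency genes was called. As in *Eomes* KO cells on day 2, 2 of 3 examined neuroectoderm genes were called higher, here on both days. Their sum on day 3 was 35.6 beside 25.7 in WT cells, of which *Nes*, which was not called, made 24.7 and 25.5. The part of these marker genes in the levels of the pathway genes was not tested.

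The difference between the lines without *Eomes* was then taken directly. On day 3, dKO cells had more than *Eomes* KO cells of *Lefty1* (39.4 against 4.55), *Tdgf1* (497 against 97.8), *Lefty2* (30.3 against 6.07), *Gdf3* (9.49 against 2.04) and *Nodal* (17.8 against 8.31). The columns come from tables that were normalized separately, and after scaling to a median ratio of 1 the differences were 8.57-fold, 5.04-fold, 4.93-fold, 4.60-fold and 2.12-fold, all past the limit, while the log2 ratio of *Acvr2b* was −0.83 and that of *Foxh1* 0.07. As the ratios of these columns to WT ran with transcript length in opposite directions, the comparison was repeated without the trends with GC content and length. The log2 ratios were then 2.93 for *Lefty1*, 2.12 for *Tdgf1*, 2.17 for *Lefty2* and 2.00 for *Gdf3*, while that of *Nodal* was 0.94 and no longer called. Each line is represented by 1 column, and the comparison was chosen after the values had been seen. It called 7.41% of 11550 genes higher in dKO cells and 6.56% lower. The targeted genes were both low in the dKO: *Eomes* stood at 1.24 on day 2 and 0.346 on day 3, and *T* at 2.77 and 1.93, while in *Eomes* KO cells *Eomes* was 2.42 and 0.276 and *T* 22.3 and 4.46. In *T* KO cells *T* was 6.64 and 3.00, and *Eomes* 24.7 and 4.83. The *T* values of dKO cells come from a gene that lost its promoter and first exon, unlike those of *Eomes* KO cells. The part of *T* in the differences between these lines was not tested.

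**Figure D4:**
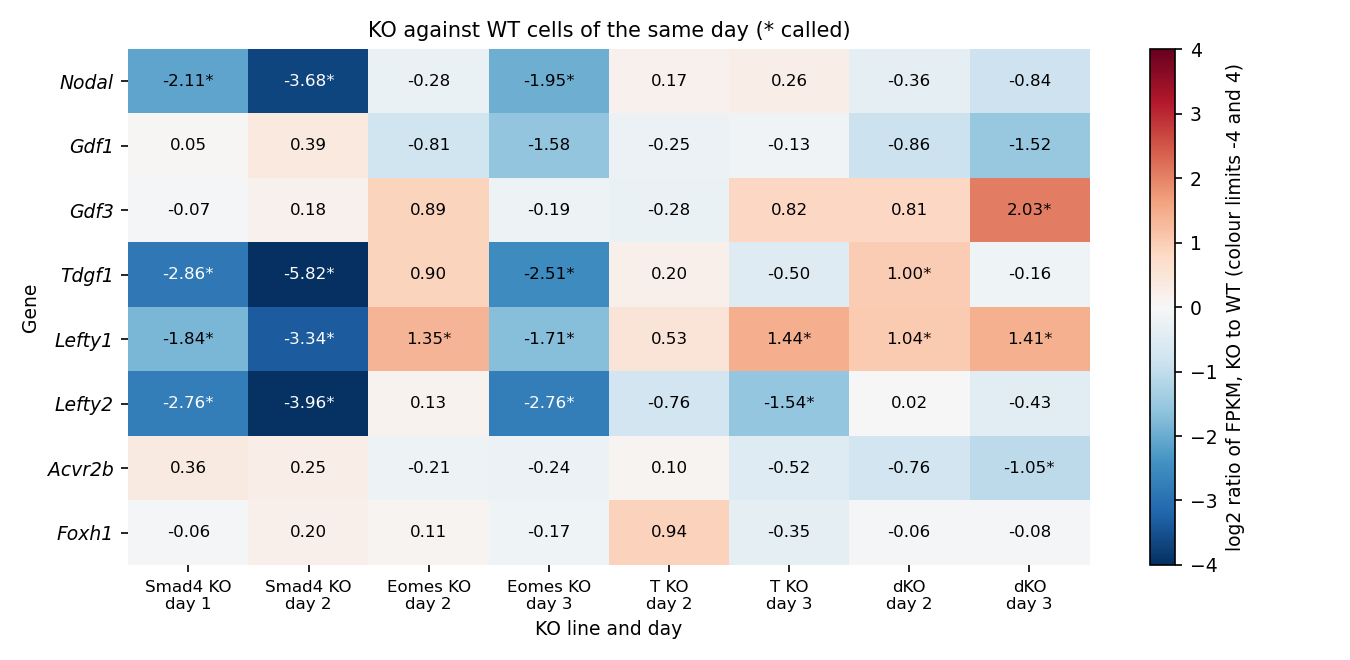
Log2 ratio of FPKM between KO and WT cells of the same day for the 8 members that exceeded FPKM 1 anywhere, by KO line and day, with blue for lower and red for higher in the KO and an asterisk for a called difference. Colours saturate at −4 and 4, and each cell is a ratio of 2 pooled values. *Nodal*, *Tdgf1*, *Lefty1* and *Lefty2* are blue together in the *Smad4* KO on days 1 and 2 and in the *Eomes* KO on day 3.

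The antagonists did not keep their proportion. In the 4 F1G4 WT stages *Lefty2* exceeded *Lefty1*, by 4.25-fold in the ES state, 6.14-fold on day 1, 1.76-fold on day 2 and 2.75-fold on day 3. It also did so in both WT columns of the *Smad4* line (3.76-fold and 1.59-fold). In the KO lines made from F1G4 cells *Lefty1* exceeded *Lefty2* in 5 of 6 columns, by 1.33-fold in *Eomes* KO cells on day 2, 1.40-fold and 2.87-fold in *T* KO cells on days 2 and 3, and 1.16-fold and 1.30-fold in dKO cells. *Eomes* KO cells on day 3 were the exception, with *Lefty2* 1.33-fold above *Lefty1*. Only in *T* KO cells on day 3 was *Lefty1* above *Lefty2* by more than 2-fold. The sum of both was nearly as high in *T* KO cells on day 3 (52.7) as in WT cells (53.6), so that there the order of the antagonists was the reverse of WT at a similar total. Of the 50-base stretches of the *Lefty1* transcript 17.9% also occur in *Lefty2*, and 11.6% of those of *Lefty2* occur in *Lefty1*, so that part of the reads of one gene can be assigned to the other.

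**Figure D5:**
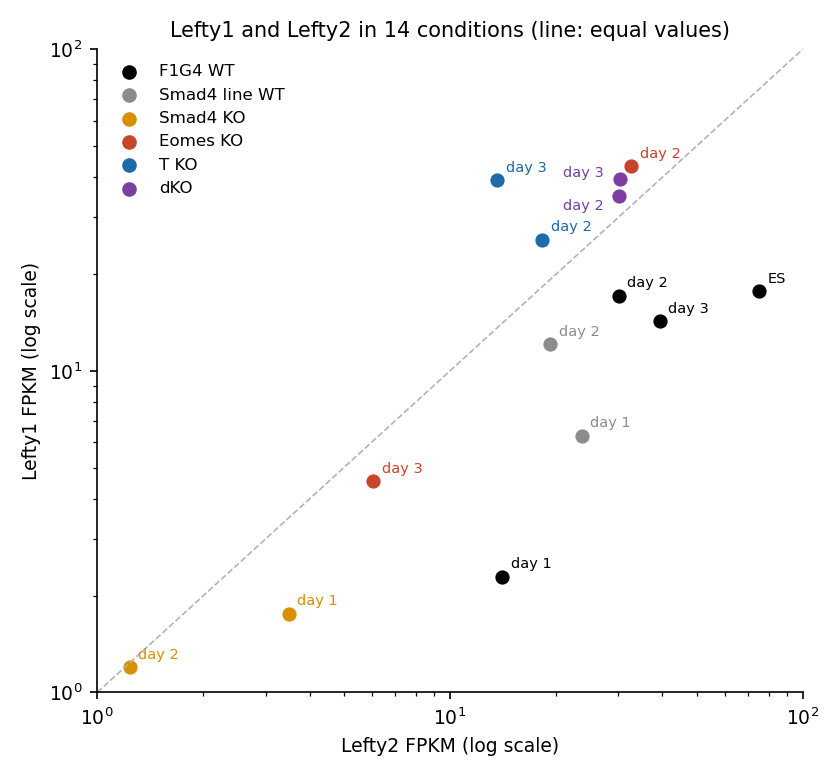
FPKM of *Lefty1* against *Lefty2* in the 14 conditions on log axes, with 1 pooled value per point, colours for the lines, and a dashed line of equal values. F1G4 WT cells and WT cells of the *Smad4* line lie below the line, and *T* KO cells, dKO cells and *Eomes* KO cells on day 2 lie above it.

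Of the other genes of the pathway, those that carry the signal in the cell were rarely called, and most calls were among the targets. The 7 genes of receptors and Smads (*Acvr1b*, *Acvr1c*, *Acvr2a*, *Tgfbr1*, *Smad2*, *Smad3*, *Smad4*) gave 1 call in the 8 comparisons of KO and WT cells, with 6 examined in each. The call was *Smad3* in *Eomes* KO cells on day 3 (17.8 against 7.89, log2 ratio 1.18), beside 7.39% of all examined genes called higher. Of 9 intracellular regulators, *Smad7*, an inhibitor induced by TGFβ signals, stood at 2.84 against 14.9 in the *Smad4* KO on day 1 (log2 ratio −2.40) and at 2.18 against 10.2 on day 2 (−2.22), and was called in no other KO. *Pmepa1*, which holds back Smad2/3, was called lower in the *Smad4* KO on day 2 (0.543 against 4.31), in the *Eomes* KO on day 2 (1.59 against 3.57) and day 3 (2.25 against 5.41) and in the dKO on day 2 (1.46 against 3.56). Of the genes of other secreted Nodal antagonists, *Dand5* was examined and not called in any comparison of KO and WT cells, and *Cer1*, at most at 0.266 FPKM in them, was too low to be examined. Among the processing enzymes, *Furin* was called lower in *Eomes* KO cells on day 3 (2.99 against 6.22, log2 ratio −1.06), in *T* KO cells on day 2 (1.55 against 3.99) and in dKO cells on day 2 (1.86 against 3.83). Over the genes of the 6 lists other than those a line lacks, 5 of 20 examined genes were called lower in *Smad4* KO cells on day 1 beside 2.41% of all examined genes, and 9 of 24 on day 2 beside 3.21%. In *Eomes* KO cells it was 4 of 23 on day 2 (4.17%) and 11 of 27 on day 3 (9.01%), in *T* KO cells 3 of 24 (9.93%) and 7 of 27 (3.92%), and in dKO cells 4 of 22 (4.50%) and 7 of 26 (5.53%). In the other direction there was 1 call in *Eomes* KO cells on day 3 (7.39%) and there were 2 in *T* KO cells on day 2 (5.70%).

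A list of 10 target genes was taken from general knowledge. In the *Smad4* KO all 3 that were examined on day 1 and all 6 on day 2 were called lower, among them on day 2 *Fgf8* (0.154 against 19.8, log2 ratio −7.01), *T* (0.891 against 26.6, −4.90) and *Eomes* (1.73 against 24.8, −3.84). On day 3, and without the genes that a line lacks, 8 of 8 were called lower in *Eomes* KO cells (9.01% of all examined genes), 6 of 8 in *T* KO cells (3.92%) and 6 of 7 in dKO cells (5.53%). *Fst*, whose product binds activin, belongs to the list of related ligands and their binder. In WT cells it stood at 1.18 in the ES state and at 5.49, 19.2 and 174 on days 1, 2 and 3, and on day 3 it was 2.35 in *Eomes* KO, 3.80 in *T* KO and 8.27 in dKO cells. *Inhbb*, an activin subunit gene, was 9.21 in ES cells and 0.119 or less in WT cells on days 1 to 3.

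Across the 14 conditions *Tdgf1* ran closest to *Lefty2* (Pearson's r 0.91), *Lefty1* (0.89) and *Nodal* (0.85) on the log2(FPKM + 0.1) scale, while *Gdf3* was unrelated to *Nodal* (−0.07), and *Acvr2b* ran against *Lefty1* (−0.63). The conditions share WT cells, clones and library preparation, so these values describe the columns and are not a test. Over the 12 conditions without the *Smad4* KO, *Tdgf1* still ran with *Lefty1* (0.82) and *Lefty2* (0.66), less with *Nodal* (0.47), and *Nodal* with *Lefty2* at 0.28. Among 9284 genes with FPKM of at least 5 in some condition, those most like *Nodal* were *Ebp* (0.91), *Echdc2* (0.88) and *Epha2* (0.86), and those most like *Tdgf1* were *Ugp2* (0.91), *Smad7* (0.89) and *2810429I04Rik* (0.87). The genes most like *Lefty2* were *Tcea3* (0.92), *Sh2b1* (0.85) and *Aplp1* (0.82). *Lefty1* ran with *Degs1* (0.88), *Mars2* (0.87) and the pluripotency gene *Nanog* (0.87). *Nanog* shared the dip on day 1 in WT cells, with 148 in the ES state, 16.1 on day 1, 120 on day 2 and 119 on day 3.

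Markers of cells that could have come along with the cultures had low sums, though not every gene was near 0. The sums over 5 genes each were at most 2.17 FPKM for extraembryonic endoderm, 3.38 for feeder fibroblasts, 6.06 for trophoblast and 6.67 for the node, another site of *Nodal*, *Gdf1* and *Lefty* expression in the embryo. The node gene *Noto* was at most at 0.0118 and *Shh* at 0.0217, whereas *Foxj1* reached 4.84 in F1G4 WT cells and *Nog* 3.11 in dKO cells, each on day 3. From day 2 to day 3 of F1G4 WT cells, 2 of 2 examined node genes were called higher, beside 6.14% of all examined genes. The trophoblast gene *Prl3d1* was listed at 0 in every condition, whereas *Plet1* reached 5.26 in *Eomes* KO cells on day 3. The endoderm gene *Ttr* exceeded 1 FPKM in *Eomes* KO cells on days 2 and 3 (1.19 and 1.11) and in dKO cells on day 3 (1.25), and was at most at 0.0233 in WT cells. Whether these low levels bear on any pathway gene was not tested.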

How the data were processed

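RNA of 18 samples was used, and the other assays of the series were not analysed here. The authors prepared strand-specific ScriptSeq libraries from total RNA, sequenced them paired-end, trimmed reads with cutadapt 2.9, aligned them with HISAT2 2.1.0 to mm10 and computed FPKM with Cuffdiff 2.2.1 on the refSeq annotation, correcting for multi-mapped reads and sequence bias but not for effective length (tool versions from the submitters' processing notes). The deposited FPKM are 1 pooled value per gene and condition in 9 tables. The legends speak of averages of 2 replicates while KO conditions are labelled as 1 sample, so the number of samples behind a KO column is unclear. Bias correction leaves no whole-read steps, so depth and counting precision are unknown. The WT columns of F1G4 cells in the KO tables follow those of the time course by a factor of 0.989 to 1.04, with 17 to 27 genes above FPKM 1 more than 1% off it and no member among them, and all KO comparisons of a day share these WT cells. The time-course table has 4 rows under duplicated names, which were not used.

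Log2 ratios were taken within a table without a pseudocount, and calls (FPKM above 1 in either condition, log2 ratio above 1 or below −1) follow the study's methods. A gene at 0 in one condition has no ratio and was called by its direction. Ratios between tables (WT lines, days of a KO line, dKO against *Eomes* KO) were scaled to a median of 1. Likeness was Pearson's r of log2(FPKM + 0.1). The genes named are the 9 members, the targeted genes, genes of 6 pathway lists called at FPKM of at least 5, genes that overlap or copy a member and the 3 genes most like each of *Nodal*, *Lefty1*, *Lefty2* and *Tdgf1*. *Cer1*, *Dand5*, lower values of *Furin* and *Pmepa1* and single marker genes were named outside this rule, after their values were seen. The members and lists were chosen with earlier results of these data known. Alternatives were a pseudocount of 1 or 0.1, no FPKM minimum or one of 5, TPM, scaling to the median, a log2 limit of 1.5, the WT values of the time course and, added after the data were seen, removal of the median log2 ratio in 20 groups of genes by GC content and then by length. The 50-base stretches of each member's longest coding transcript were sought in all other transcripts of GENCODE vM21, and positions and promoters are those of RefSeq. Versions were matplotlib 3.10.9, pandas 2.3.3, numpy 2.4.6 and Python 3.11.15, and the calls were tested on simulated data.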

Additional observations from a re-analysis of the deposited data

How the results depend on the processing

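No paired analysis was possible because each deposited column pools its condition, and for the same reason no replicate could be left out. Under 9 alternatives, 883 of 921 values of a member kept their call or lack of one, 26 lost a call and 12 gained one, in part only through the FPKM minimum. None changed direction while called, whereas some uncalled values near 0 changed sign. Under each alternative that was run for them *Nodal*, *Tdgf1*, *Lefty1* and *Lefty2* were called lower in the *Smad4* KO on both days and in the *Eomes* KO on day 3 (the WT value of the time course applies to F1G4 lines only). Counts of members called that moved by over 1.5 times were the following. With a log2 limit of 1.5 the count was 1 rather than 4 for WT day 2 against ES, 1 rather than 2 for WT day 3 against ES and for *T* KO day 3, 0 rather than 1 for *Eomes* KO day 2, 0 rather than 2 for dKO day 2 and 1 rather than 3 for dKO day 3. Without an FPKM minimum it was 2 rather than 1 for *Eomes* KO day 2, 1 rather than 0 for *T* KO day 2 and 5 rather than 3 for dKO day 3, through *Gdf1* and *Cfc1* below FPKM 1. With TPM it was 2 for *Eomes* KO day 2 (*Gdf1* at −1.02) and 1 for *T* KO day 2 (*Foxh1* at 1.06). A pseudocount of 1 or an FPKM minimum of 5 left 1 rather than 2 for WT day 3 against day 2, as *Gdf1* was lost. For dKO day 2 the count was 1 rather than 2 with scaling to the median, with the WT value of the time course and without GC and length trends, where *Tdgf1* (0.82) and *Lefty1* (0.95) were lost and *Gdf1* (−1.12) was gained. With TPM it stayed at 2 through *Gdf1* (−1.27) and *Acvr2b* (−1.17) in place of *Tdgf1* (0.60) and *Lefty1* (0.64). TPM moved all ratios of a comparison by −0.41 to 0.28.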
